A study of Mus musculus with 5 samples.

Results

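The immunoglobulin heavy chain variable genes, symbols starting with Ighv, form a tandem array near the distal end of mouse chromosome 12. They were taken by symbol from the NCBI RefSeq gene table of GRCm38.p6 (mm10), which gave 183 Ighv genes of 49602 genes, 120 listed as V segments and 63 as V segment pseudogenes. The peaks described are those of the deposited CTCF peak list with a midpoint in a window of 4 Mb around the locus, which were 42 of 22756. The list came from NIH3T3 cells, a mouse embryonic fibroblast line, and all groups stably expressed H2B-mCherry, the rtTA3G transactivator and a TRE3G-controlled CDX2 gene. CTCF was immunoprecipitated in 2 libraries treated with doxycycline for 6 h, which induces CDX2, and in 2 libraries without doxycycline, and 1 input library had no doxycycline. The authors merged the peaks of both conditions into 1 list of positions without heights, so no value here belongs to a condition or a replicate, the effect of CDX2 was not tested, and the depth behind a peak is unknown. Peak positions do not measure expression, so the fibroblast identity of the line was not checked from markers. The gene table describes the C57BL/6J strain, and which heavy chain haplotype the line carries was not tested.

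CTCF is a zinc finger DNA-binding protein at which cohesin-driven chromatin loops stop. In developing B cells, the RAG recombinase cuts at 1 variable (V), 1 diversity (D) and 1 joining (J) segment. The cut segments are then joined beside the constant genes by end-joining factors. CTCF sites along the array help to fold distant V genes toward the D and J segments. Known CTCF-bound elements of the locus are a cluster beyond the 3' regulatory region and sites of the intergenic control region between the V and D genes. The locus is not rearranged for antibody production in fibroblasts. The array is read toward lower coordinates, so the lower end of an Ighv gene is its 3' side, where the recombination signal lies, and the higher end is its promoter side. The promoter table held no Ighv gene and no genome was given, so no sequence under an Ighv gene or its peaks is shown.

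Along the locus, CTCF peaks were crowded beyond the constant genes, absent from the constant and J genes, single in the D region, and present in 2 separate stretches of the variable array. The 42 peaks fell as 9 in the 3' flank up to Tmem121, 7 in the 3' end between Tmem121 and Igha, 0 over the constant genes from Igha to Ighm, 1 among the J and D genes, 0 between the last D gene and the first V gene, 19 in the variable part and 6 in the 5' flank. The last peak before the window lay at 112987958 to 112988172, 11.8 kb below the border of the window, and the next peak beyond it at 117403583 to 117403799, 404 kb above.

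**Figure D1:**
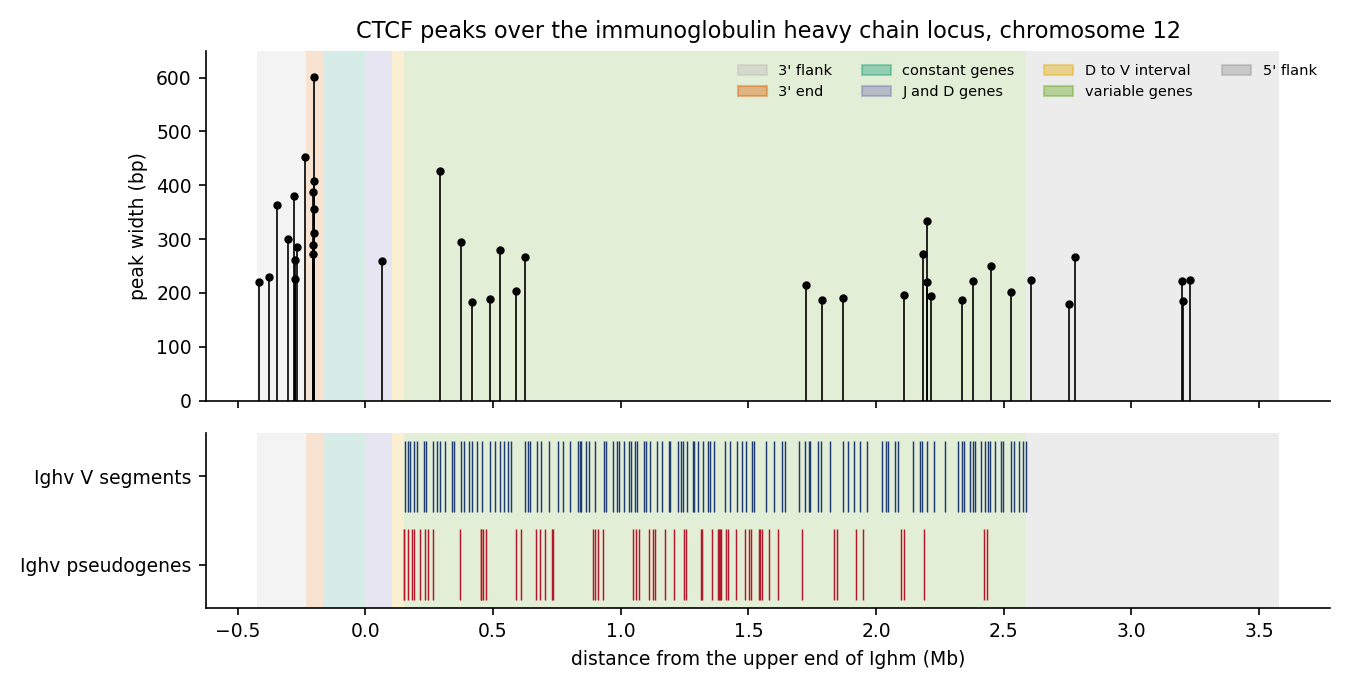
Upper panel, each of the 42 CTCF peaks drawn at its distance from the upper end of Ighm (x axis, Mb) with its width in bp (y axis), over shading for the 7 segments. Lower panel, the 120 Ighv V segments and 63 Ighv pseudogenes as vertical lines. A dense group stands in the 3' end, and the 19 peaks of the variable part leave 1098 kb in its middle without a peak.

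Density was compared with all of chromosome 12, which carried 770 peaks, or 6.58 per Mb, over 116.99 Mb. In the 3' end, 7 peaks in 66.7 kb made 105 per Mb (exact 95% Poisson interval 42.2 to 216), 15.9 times its share by length. In the 3' flank, 9 peaks in 190 kb made 47.5 per Mb (21.7 to 90.1), 7.21 times its share. Both lay above their share in exact two-sided binomial tests, with p-values adjusted over the 7 segments by the Benjamini-Hochberg method (adjusted p = 2.9e-06 and 2.2e-05), and these were the 2 of 7 segments that passed (28.6%). A cluster of CTCF sites is known in the 3' end and the segment was set apart for it, so its p-value is a description. The test treats neighbouring peaks as independent. With peaks within 5 kb counted as 1, an alternative chosen after seeing the data, the 3' end held 1 peak and its call was lost (ratio 2.62, adjusted p = 0.740, exact binomial test), while the 3' flank kept its call with 7 (ratio 6.46, adjusted p = 0.00093).

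The variable part had 19 peaks over 2.44 Mb, 7.80 per Mb (exact 95% Poisson interval 4.69 to 12.2), against 16.04 for its share of the chromosome. That is a ratio of 1.18, and the difference did not pass (exact two-sided binomial p = 0.447). Against chromosomes 1 to 19, which carried 9.39 peaks per Mb, the ratio turned below 1, at 0.830 (exact binomial p = 0.529). Of 23569 windows of the same length laid every 100 kb over those chromosomes, 56.2% held as few peaks or fewer, and the median window held 17.

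**Figure D2:**
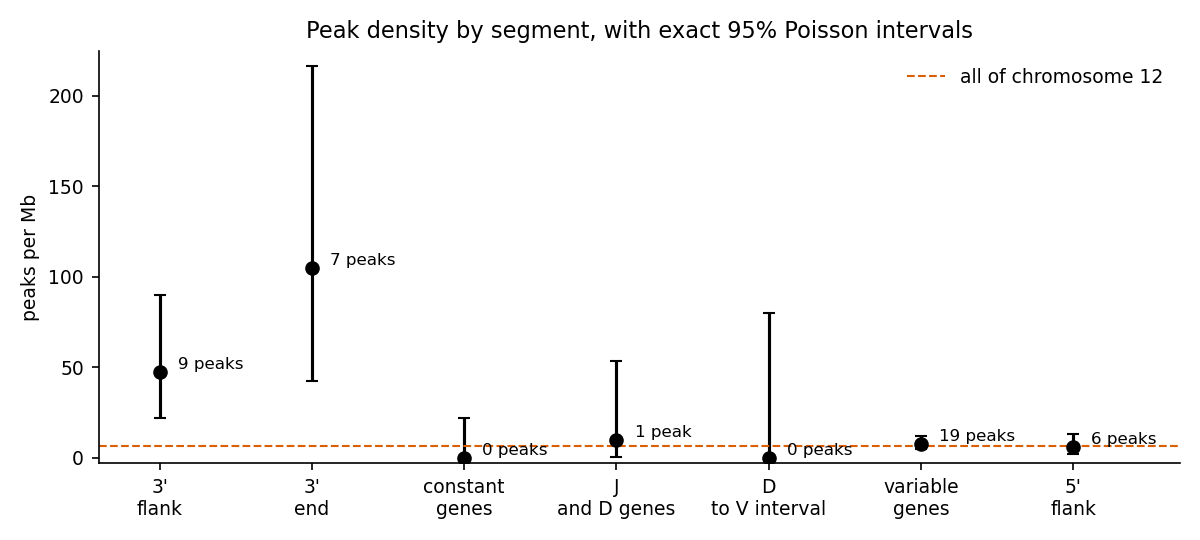
Peaks per Mb (y axis) in the 7 segments from low to high coordinate (x axis), as points with exact 95% Poisson intervals and the number of peaks beside each. The dashed line is chromosome 12 as a whole at 6.58 per Mb, and the intervals of the 3' flank and 3' end, whose lower bounds are 21.7 and 42.2 per Mb, lie above it.

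The 3' end held the tightest group of peaks in the locus. All 7 of its peaks lay within 6.69 kb, from 113215988 to 113222672, which is 26.5 kb above Tmem121, a transmembrane protein gene, and 33.5 kb below Igha, the constant gene of IgA. From low to high coordinate the peaks lay at 113215988 to 113216260, 113217339 to 113217726, 113217929 to 113218218, 113219882 to 113220193, 113220443 to 113220850, 113221330 to 113221685 and 113222072 to 113222672. Their widths in that order were 273, 388, 290, 312, 408, 356 and 601 bp. All 7 were wider than the median of the whole list, 262 bp, and the peak nearest to Igha was the widest of the 42. The spaces between them ran from 202 to 1663 bp. Over chromosomes 1 to 19 there were 22440 runs of 7 neighbouring peaks, with a median length of 328 kb, and the 3' end was the shortest of them. This rank is a description, since a cluster of CTCF sites is known there and the segment was set apart for it. No annotated gene overlapped the run, and the closest was the small nuclear RNA gene Gm25622.

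**Figure D3:**
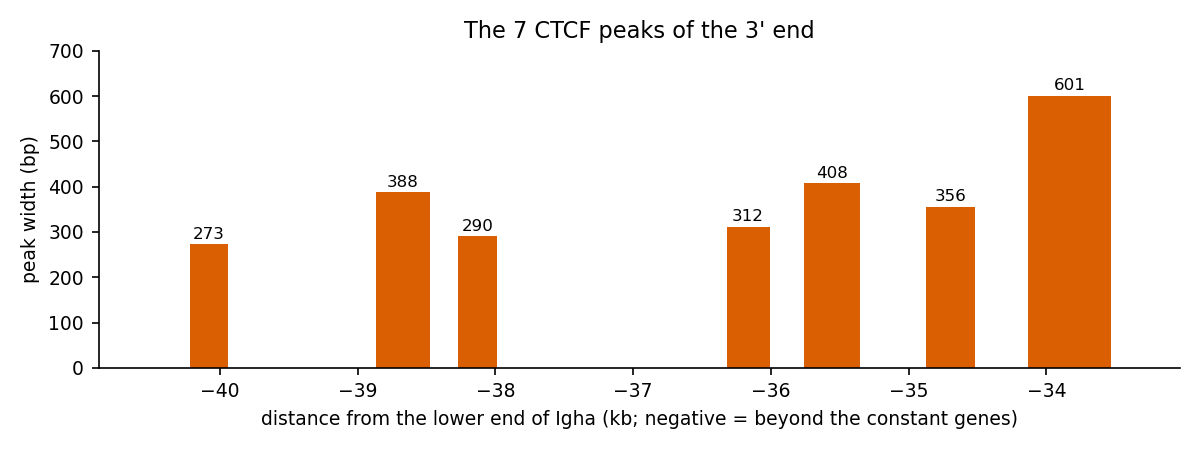
The 7 peaks of the 3' end as bars, each spanning its own start and end in kb from the lower end of Igha (x axis) and as high as its width in bp (y axis, also printed above each bar). The widths run from 273 to 601 bp, and the peaks form groups of 1, 2 and 4 separated by more than 1 kb.

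No peak was listed over the constant genes. Igha, Ighe, Ighg2c, Ighg2b, Ighg1, Ighg3, Ighd and Ighm encode the constant parts of the antibody classes, and the closest peak was 33.8 kb from Igha, 127 kb from Ighg3 and 65.2 kb from Ighm. A count of 0 in 167 kb allows up to 22.2 peaks per Mb (exact 95% Poisson interval), and no difference from the density of the chromosome was detectable (adjusted p = 0.887, exact binomial test). The 4 J genes, which lie side by side, had 0 members with a peak within 10 kb, against 36.2% of all genes, and the closest to Ighj1 was 58.1 kb away.

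In the D region 1 peak of 259 bp was listed, at 113487760 to 113488018. It lay 5.57 kb above Ighd1-1, a D gene, and 1.55 kb below Adam6b, a sperm membrane protein gene that sits inside the locus, in the part where the intergenic control region is known. Of the 20 D genes, 2 had a peak within 10 kb, against 36.2% of all genes, and both were reached by this peak. Adam6a, the second such sperm gene, was 56.0 kb from the closest peak. The D-region peak stood alone, with 265 kb to the 3' end below it and 228 kb to the first peak of the variable part above it. Ighv5-2, the first V gene listed as a V segment, began 90.5 kb above it, and no peak was listed at its ends.

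In the variable part, peaks sat close to Ighv genes. Of the 19 peaks, 16 had a midpoint inside or within 1 kb of an Ighv gene, which is 84.2% (exact 95% Clopper-Pearson interval 60.4 to 96.6%), while such positions make up 17.1% of the variable part. The count depends on the distance chosen. Within 500 bp it was 9, and 7 peaks lay 765 to 977 bp from genes of family 1. The interval treats the peaks as independent. The median distance to the nearest Ighv gene was 0.765 kb and the longest was 9.38 kb. The nearest gene was a V segment for 17 peaks and a pseudogene for 2, Ighv4-2 and Ighv1-65. From the side of the genes, 16 of 183 had a gene-end peak, meaning a midpoint up to 1 kb from either end (8.74%, exact 95% Clopper-Pearson interval 5.08 to 13.8%), close to the 8.30% of all genes. V segments had one at 14 of 120 (11.7%, 6.53 to 18.8%) and pseudogenes at 2 of 63 (3.17%, 0.387 to 11%). These intervals overlap, and the difference was not tested. With 10 kb on each side, 22 of 183 Ighv genes had a peak (12.02%, 7.69 to 17.6%), against 36.2% of all genes. The median Ighv gene was 294 bp long and the median of all genes was 5994 bp, so the ranges searched were not of 1 length.

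The peaks fell into a D-proximal stretch and a D-distal stretch with different positions against the genes. In the D-proximal stretch, 7 of 7 peaks lay across the lower, 3' end of an Ighv gene, with midpoints from 92.5 bp below that end to 7 bp inside the gene. The 12 peaks of the D-distal stretch included 0 across a lower end. There, 7 peaks lay above the higher, promoter-side end of an Ighv1 gene, with midpoints 765 to 977 bp from it. The D-proximal stretch held 0 genes of families 1 and 8, so it could have had no such peak at an Ighv1 gene. Of its 7 peaks, 0 lay within 1 kb above the higher end of any Ighv gene. In turn, the D-distal stretch held 0 genes of families 2 and 5, so family and place in the array cannot be told apart. Both stretches were drawn after the positions were seen, so these counts are a description.

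The D-proximal stretch ran from Ighv5-1 to Ighv11-2 and held 42 Ighv genes. Of these, 7 had a peak at an end, against 8.30% of all genes. The first 18 Ighv genes, in 144 kb from Ighv5-1, had none. The stretch was drawn to end at a peak, which raises its share of such genes by construction. The first peak, at 113716466 to 113716892, was 427 bp wide and overlapped 221 bp of Ighv2-6. It was the widest of the variable part. The next, 295 bp at 113795908 to 113796202, lay at Ighv2-6-8, a gene of the same family.

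The Ighv5-16 peak at 113838352 to 113838534 was 183 bp wide, the narrowest of the variable part, and reached 7 bp into the gene. At Ighv7-2 a peak of 188 bp lay at 113911880 to 113912067. Both genes of family 4 had a peak, of 280 bp at 113948077 to 113948356 for Ighv4-1 and of 204 bp at 114013019 to 114013222 for the pseudogene Ighv4-2. The last was 266 bp wide, at 114048016 to 114048281, over the lower end of Ighv11-2. Families 2 and 5, the families closest to the D genes, had 31 members in the stretch. Of these, 3 had a gene-end peak, against 8.30% of all genes. Ighv3 and Ighv14 genes of the stretch had none.

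**Figure D4:**
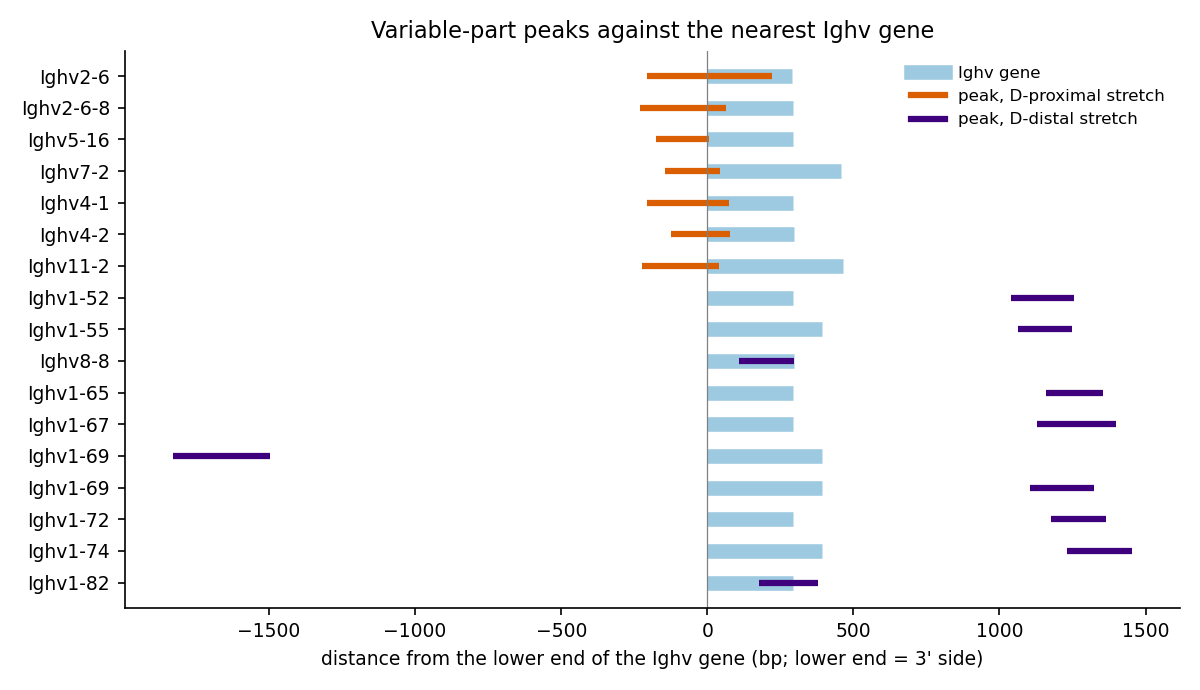
Each line is 1 peak of the variable part within 2500 bp of its nearest Ighv gene, placed by distance in bp from the lower end of that gene (x axis), with the gene in blue and the peak in orange (D-proximal) or purple (D-distal). The 7 orange peaks straddle 0, and 7 purple peaks lie together with midpoints 1147 to 1341 bp from the lower end of an Ighv1 gene. The peaks nearest to Ighv8-12 and Ighv1-78 are farther away and are not drawn.

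The D-distal stretch ran from the peak above Ighv1-52 to Ighv1-86 and held 12 peaks over families 1 and 8. Peaks above the promoter side lay at 6 V segments and 1 pseudogene of family 1. The closest was 187 bp wide at 115209199 to 115209385, 765 bp from Ighv1-55. At Ighv1-69 a peak of 220 bp at 115624306 to 115624525 was 820.5 bp away, and at Ighv1-52 one of 215 bp at 115146527 to 115146741 was 854 bp away. These 3 were the nearest of the 7.

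The other four were between 951 and 977 bp away. At Ighv1-74 the peak was 223 bp wide, at 115803920 to 115804142 and 951 bp from the gene. At the pseudogene Ighv1-65 a peak of 197 bp at 115533213 to 115533409 was 964 bp away. At Ighv1-67 one of 272 bp at 115605068 to 115605339 was 970.5 bp away, and at Ighv1-72 one of 187 bp at 115759161 to 115759347 was 977 bp away. Gene models of the family differ in how much of the promoter side they take in, so the distance was also measured from the lower end, where it was 1147 to 1341 bp with a median of 1256 bp. Family 1 had 92 members, the most of any family, and 8 had a gene-end peak, against 8.30% of all genes.

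The remaining 5 peaks of the stretch lay elsewhere. A peak of 191 bp at 115294173 to 115294363 overlapped 190 bp of Ighv8-8, and one of 202 bp at 115952714 to 115952915 overlapped 118 bp of Ighv1-82 at its higher end. One of 333 bp at 115621373 to 115621705, the widest of the stretch, was 1.66 kb below Ighv1-69, so that this gene had a peak on each side. One of 250 bp at 115872571 to 115872820 was 3.63 kb above Ighv1-78, and one of 194 bp at 115638473 to 115638666 was 9.38 kb below Ighv8-12. Median width was 208.5 bp in the D-distal and 266 bp in the D-proximal stretch, and the ranges, 187 to 333 bp and 183 to 427 bp, overlapped. Of all 19 peaks of the variable part, 13 were narrower than the median of the whole list.

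Between the stretches, 1098 kb held no peak. This space, from 114048282 to 115146526, took up 45.1% of the variable part and contained 93 Ighv genes whole, 55 V segments and 38 pseudogenes, from Ighv14-3 to Ighv1-52. Of these, 1 had a gene-end peak, Ighv1-52, by the peak that closes the space, against 8.30% of all genes. A space picked for holding no peak keeps this count low by construction. At the density of chromosome 12 a space of this length would hold 7.23 peaks. It was chosen as the longest space of the variable part and was not tested. Of the 769 spaces between neighbours on chromosome 12, 12 were as long or longer, and over chromosomes 1 to 19 279 of 22535 were (1.24%). The D-proximal stretch had 14.7 peaks per Mb (exact 95% Poisson interval 5.92 to 30.3) and the D-distal stretch 13.9 (7.18 to 24.3), counted outside that space. Leaving out a space because it held no peak raises both densities by construction. The intervals do not allow for that choice, so neither density was compared with the chromosome.

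The peak-free space also holds a pair of similar microRNA genes, each beside the higher end of an Ighv1 gene. Ighv1-2 ends at 114469371 and Mir7094-1 starts at 114469407. Ighv1-5 ends at 114513623 and Mir7094-2 starts at 114513635. Mir7094-1 and Mir7094-2 lie 44.2 kb apart, 421 kb and 465 kb from the closest peak, and their RefSeq hairpins on GRCm38.p6 were the same at 59 of 60 bases. Their 5' mature sequences are shown for that difference, with the seed, bases 2 to 8, in capitals.
mmu-miR-7094-1-5p: uCUGAAGAggauacagggucuga
mmu-miR-7094b-2-5p: uCUGGAGAggauacagggucuga
They differ by A5G, counted from the 5' end, and share the other 22 of 23 bases. Similarity between the Ighv genes themselves was not measured, and how far short reads could be placed in the array was not tested.

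Of 16 Ighv families, 7 had at least 1 gene with a gene-end peak: 8 of 92 Ighv1 genes, 2 of 11 Ighv2, 2 of 2 Ighv4, 1 of 21 Ighv5, 1 of 4 Ighv7, 1 of 16 Ighv8 and 1 of 2 Ighv11. The share over all genes was 8.30%, which is near that of Ighv1, and the other families are small, so differences between families were not tested. Families 3, 6, 9, 10, 12, 13, 14, 15 and 16 had none, also within 10 kb. Most of these lie wholly or largely in the peak-free space, among them 4 of 4 Ighv9 and 4 of 4 Ighv10 genes, 6 of 8 Ighv3 and 6 of 7 Ighv6 genes. The median distance from an Ighv gene to a peak was 86.6 kb over all 183, from 0.0455 kb in family 4 to 462 kb in family 10. The most distant gene was Ighv1-10, at 548 kb.

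**Figure D5:**
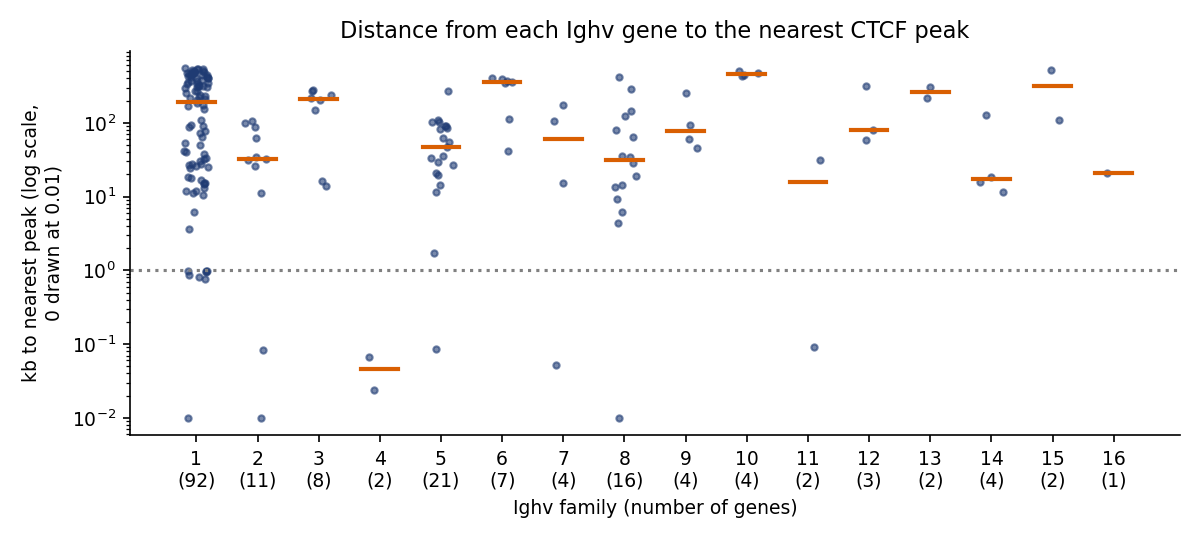
Distance in kb from each of the 183 Ighv genes to the nearest CTCF peak (y axis, log scale, with genes that hold a peak midpoint drawn at 0.01 kb) by family (x axis, number of genes in parentheses), with the family median as an orange bar and 1 kb as a dotted line. Genes under the dotted line belong to 7 families, and the median of family 10 is the highest at 462 kb.

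In the 3' flank the 9 peaks lay among closely packed genes. They included 1 of 221 bp by the long non-coding RNA gene 9230104M06Rik, 1 in Pacs2, a protein-sorting gene, 1 of 363 bp in Tex22 within 1 kb of its shared border with Pacs2, and 1 in Mta1, a subunit gene of the NuRD chromatin complex. Crip2, which encodes a LIM domain protein, had a peak of 380 bp within 1 kb of its end and another of 262 bp just beyond it. The gene model Gm30599 lay between the 262 bp peak and the next, of 226 bp, and both were within 1 kb of it. Tedc1 had 1 of 286 bp by its start, and Tmem121 held 1 of 452 bp in its body at 113187656 to 113188107. The peak at Tedc1 was the only one to overlap a promoter window, 250 bases before to 50 after a gene start, among 26 windows of the region, and it did so by 17 bp, compared with 3.59% of 32851 windows in all.

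The 5' flank, beyond Ighv1-86, had 6 peaks in 990 kb, 6.06 per Mb (exact 95% Poisson interval 2.22 to 13.2). Its density was 0.777 times that of the variable part (exact 95% interval 0.254 to 2.02), which did not pass the exact two-sided binomial test (p = 0.666). The first peak, 224 bp at 116028134 to 116028357, lay 18.2 kb beyond Ighv1-86 and 19.5 kb before Zfp386, a zinc finger gene. The next, 180 bp at 116177020 to 116177199, lay 3.69 kb from Gm23732, its nearest annotated gene. Vipr2, a receptor gene for vasoactive intestinal peptide, Esyt2, a lipid transfer protein gene, and Ncapg2, a condensin subunit gene, had no peak within 10 kb. Wdr60, a dynein gene of cilia, had 1 at 3.46 kb. Ptprn2, a secretory granule gene, held the last 3, of 223, 186 and 224 bp, and a space of 417 kb separated them from the peak before Wdr60.

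Other antigen receptor arrays gave a scale for the variable part. The Igkv genes of the kappa light chain on chromosome 6 had 4 peaks in 3.15 Mb, 1.27 per Mb (exact 95% Poisson interval 0.346 to 3.25). The Ighv density was 6.14 times higher (exact 95% interval 2.04 to 24.8), a difference that passed (adjusted p = 0.00037, exact two-sided binomial test, Benjamini-Hochberg over 2 pairs). The Trav genes of the T cell receptor alpha chain on chromosome 14 had 9 peaks in 1.55 Mb, 5.81 per Mb (2.66 to 11.02). The ratio of Ighv to Trav was 1.34 (0.579 to 3.37) and did not pass (adjusted p = 0.563 by the exact binomial test). Within 1 kb of a V gene lay 0 of 4 Igkv peaks (upper bound 60.2%) and 5 of 9 Trav peaks (55.6%, exact 95% Clopper-Pearson interval 21.2 to 86.3%). Such positions made up 12.8% of the Igkv span and 20.7% of the Trav span, so peaks close to V genes were also seen in the Trav array. Over all 344 V genes outside the Ighv array, 1.74% had a gene-end peak and 6.98% had one within 10 kb.

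Genes that act on the heavy chain locus were described from a list of 37 factors of V(D)J recombination and immunoglobulin gene regulation. Of these, 7 had a gene-end peak (18.9%, against 12% of protein-coding genes) and 24 had one in the body or within 10 kb (64.9%, against 50.8%). The list is small, and neither difference was tested. The median was 1 peak per gene, the same as over all protein-coding genes. The gene-end peaks were at Ebf1, a B cell fate factor, the octamer-binding factor genes Pou2f1 and Pou2f2, the end-joining genes Nhej1, Xrcc5 and Xrcc6, and Yy1, which encodes a factor needed for contraction of the heavy chain locus. With 10 kb on each side, Yy1 had 12 peaks, Pou2f2 7, and Nhej1 and Xrcc6 4 each. Hmgb1, a cofactor gene of RAG cutting, had 3, and Pax5, the B cell commitment factor gene, had 2. Rag1 had 1 peak and its neighbour Rag2 had 0. A further 12 had 0, among them Rad21, Wapl, Lig4, Xrcc4, Irf4, Irf8 and Ezh2.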

How the data were processed

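Per the submitters' processing notes, the tools were STAR, Picard and MACS2 and the builds mm10 and dm6, with no role or version stated; the labels describe a Drosophila chromatin spike-in. Not given in the sources used here were aligner settings, the treatment of duplicates and of reads with several matches, the peak threshold and the merging rule. The deposited file holds 22756 peak intervals as chromosome, start and end, with no score, so its values are positions in bp and the authors normalised nothing in it. Starts were converted to count from 1. Peaks were placed by midpoint. The gene table was RefSeq GRCm38.p6, which has no strand. Left out of it were 340 genes placed below 3 Mb on any chromosome but Y, and the record Igh, which spans the whole locus. Chromosome length was counted between the outermost genes or peaks. Densities were tested with exact two-sided binomial tests (scipy 1.17.1, checked on simulated data) at 0.05, and intervals are 95% and cover counting error only. Named genes were those holding or nearest to a peak, Ighv genes with a gene-end peak, the constant genes, Adam6a, Adam6b and the flanking genes. The members and lists were chosen with earlier results of these data known.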

Additional observations from a re-analysis of the deposited data

How the results depend on the processing

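Of 38 values recomputed under an alternative, 29 of them planned and the others chosen after seeing the data, 34 kept their side of the threshold or moved by less than their interval. The exceptions were the 3' end with peaks within 5 kb counted once (ratio 2.62, adjusted p = 0.740, exact binomial test), the share of Ighv genes with a peak within 500 bp of an end (4.92%), and the share with a peak in the body alone (1.64%) or within 20 kb (25.1%). A narrower or wider distance takes in fewer or more positions by construction. The ratio of the variable part to its share lay between 0.791, with peaks of at least median width, and 1.21, with neighbours within 500 bp merged, and passed under none of 6 alternatives (exact binomial p from 0.372 to 0.714). With peaks of at least median width the Igkv span held no peak, so that ratio has no value. No paired analysis was possible because no peak is tied to a sample. Depth is unknown, and a place without a peak may have lacked reads.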

Other observations

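Peaks were also counted over smaller antigen receptor arrays. The Trbv genes of the T cell receptor beta chain on chromosome 6 had 2 peaks in 667 kb, 3.00 per Mb (exact 95% Poisson interval 0.363 to 10.8), and 1 of 35 Trbv genes had a gene-end peak, against 8.30% of all genes and 1.74% of V genes outside the Ighv array. Within 10 kb, 6 of 35 Trbv genes did (17.1%), against 36.2% of all genes. The 3 Iglv genes of the lambda light chain on chromosome 16 spanned 176 kb with 1 peak, which was not within 10 kb of any of them. Of 9 B cell marker genes 7 had at least 1 peak inside them or up to 10 kb away, all but Ms4a1 and Vpreb1. Of 8 fibroblast marker genes 7 did, all but Thy1, against 50.8% of protein-coding genes. These counts were not tested and describe no cell type.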
